A study of Homo sapiens with 8 samples.

Results

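The TNF-alpha response of KBM7 cells with a gene trap in TNFRSF1A was read as the log2 intensity on the array of stimulated mutant cells minus that on the array of unstimulated mutant cells. It rests on 2 of the 8 arrays of the series. A probe set was compared where at least 1 of the 8 arrays gave it a log2 value of 6 or more, which left 26938 of the 49395 probe sets. They covered 11529 of the 18132 genes with a single-gene probe set, each read from its probe set with the highest mean.

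KBM7 is a chronic myeloid leukaemia line with a nearly haploid karyotype, in which 1 gene-trap insertion can disable a gene. The TNFRSF1A mutant was left unstimulated or received TNF-alpha for 6 hours, at 10 ng/ml, and wild-type (WT) cells were treated in parallel, with WT replicate 2 as their unstimulated control. In the other experiment of the series, WT cells and a JAK2 mutant received IFN-gamma at 100 ng/ml for 6 hours or nothing, with WT replicate 1 as the unstimulated WT control. All cells were grown in Iscove's medium with fetal calf serum and were in log phase. The labels do not say how many mutant clones were used, and each stimulated or mutant condition had 1 array. A difference between 2 such arrays has no replicate check of its own, so probe sets were counted by the size of the difference, with 2-fold as the call.

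TNFR1, the product of TNFRSF1A, is the receptor through which soluble TNF-alpha acts on most cells. Bound receptor recruits TRADD and ubiquitin ligases, whose ubiquitin chains activate the kinases TAK1 and IKK. IKK marks the NF-kappaB inhibitor IkappaB-alpha for destruction, and NF-kappaB then enters the nucleus and switches on inhibitors of its own pathway, chemokines, adhesion molecules and survival genes. TNFR2, encoded by TNFRSF1B, is the other receptor for TNF-alpha and responds mainly to its membrane-bound form.

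The sites that NF-kappaB binds are short and stand close to many gene starts. The windows shown here belong to 4 genes whose TNF-alpha response in WT and mutant cells is described below. Each holds the 200 bases before the gene start, 5′ to 3′ on the gene's strand, from RefSeq promoters of GRCh38.p14. Capitals mark matches to GGGNNNTTCC on either strand, with overlapping matches merged.
NFKBIA (chr14:35404750-35404949, minus strand): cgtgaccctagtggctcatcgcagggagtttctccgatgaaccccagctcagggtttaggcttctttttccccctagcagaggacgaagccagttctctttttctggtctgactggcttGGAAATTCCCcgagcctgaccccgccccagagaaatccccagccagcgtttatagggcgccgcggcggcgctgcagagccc
TNFAIP3 (chr6:137867059-137867258, plus strand): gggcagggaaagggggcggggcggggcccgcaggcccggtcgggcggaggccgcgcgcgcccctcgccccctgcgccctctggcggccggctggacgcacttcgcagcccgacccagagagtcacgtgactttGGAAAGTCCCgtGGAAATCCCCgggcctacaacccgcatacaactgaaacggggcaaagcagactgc
LTB (chr6:31582426-31582625, minus strand): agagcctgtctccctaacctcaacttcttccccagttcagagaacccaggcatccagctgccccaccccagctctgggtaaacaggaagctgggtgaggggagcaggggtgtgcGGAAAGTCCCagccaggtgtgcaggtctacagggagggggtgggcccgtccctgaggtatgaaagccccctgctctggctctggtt
CXCL10 (chr4:76023498-76023697, minus strand): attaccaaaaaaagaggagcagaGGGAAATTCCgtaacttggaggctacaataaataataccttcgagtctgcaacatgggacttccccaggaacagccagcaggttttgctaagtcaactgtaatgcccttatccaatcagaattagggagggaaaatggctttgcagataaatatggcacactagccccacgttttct
Of the 36 genes raised 2-fold by TNF-alpha in WT (0.312% of those compared), 30 had a promoter in the table, and 11 of those 30, 36.7%, held the motif between 250 bases before and 50 bases after the start. It was found in 7.47% of the promoters of 9464 genes compared and in 6.52% of all 35116 promoters. The match says only that these letters stand in the window.

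No probe set reached 2-fold in the TNFRSF1A mutant, in either direction (0% of those compared). The 26938 log2 differences ran from -0.75, a probe set of the dynactin gene DCTN4, to 0.81, a probe set of SH3BGRL2 that read 3.94 and 4.74 on the 2 arrays. Their median was -0.03 and their quartiles were -0.10 and 0.04. At the smaller step of 1.5-fold, 10 probe sets (0.0371%) were higher and 15 (0.0557%) lower with TNF-alpha. At 1.2-fold the counts were 757 (2.81%) and 1013 (3.76%). In WT cells, where TNF-alpha signals through an intact receptor, 76 probe sets (0.282%) were raised and 1 (0.00371%) was lowered 2-fold, and the highest value was 6.44, for CXCL10.

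The spread of the mutant response was the smallest of the 5 pairs of arrays examined. Its SD over probe sets was 0.135, against 0.159 for the JAK2 mutant with and without IFN-gamma, 0.198 for WT with TNF-alpha, 0.234 for WT with IFN-gamma and 0.397 between the 2 unstimulated WT arrays. An SD over probe sets holds array noise, differences between cultures and any response together, and these were not separated. The value between the WT arrays is the only one from 2 samples of 1 condition. The labels do not say whether the WT samples came from separate cultures, and they belong to different experiments.

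Signal level set much of this spread. Below a mean log2 level of 5 the SD in the mutant was 0.239, between 7 and 8 it was 0.137, and from 12 upward it was 0.054. Of the 25 probe sets past 1.5-fold, 24 had a mean level below 7, where 8271 of the 26938 probe sets lay. Above a mean level of 8 no probe set of 13155 passed 1.5-fold, and 157 passed 1.2-fold. The filter on the highest of 8 arrays lets in probe sets that are dim in the mutant. Just inside it, at a highest log2 value of 6.0 to 6.1, 654 probe sets had a median of 0.01 and an SD of 0.198. Just outside, at 5.9 to 6.0, 691 had 0.01 and 0.199.

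**Figure D1:**
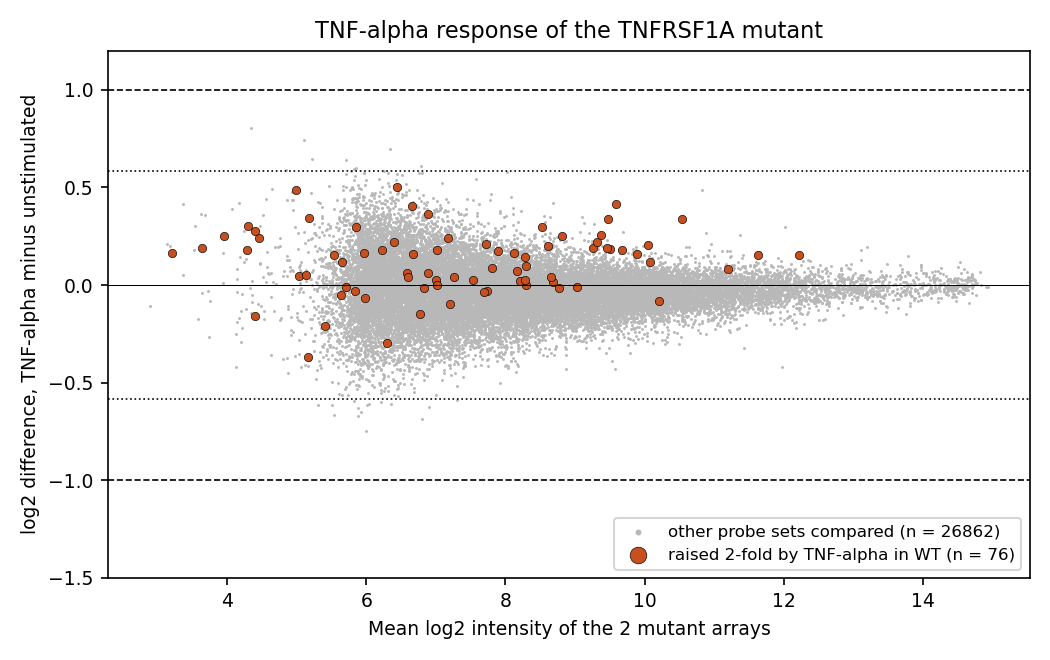
Log2 difference of the TNFRSF1A mutant with TNF-alpha (vertical) against the mean log2 intensity of its 2 arrays (horizontal); each point is a probe set, dashed lines mark 2-fold and dotted lines 1.5-fold. All points lie between -0.75 and 0.81, the cloud narrows as the signal grows, and most of the 76 probe sets raised 2-fold in WT (orange) lie above 0.

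**Figure D2:**
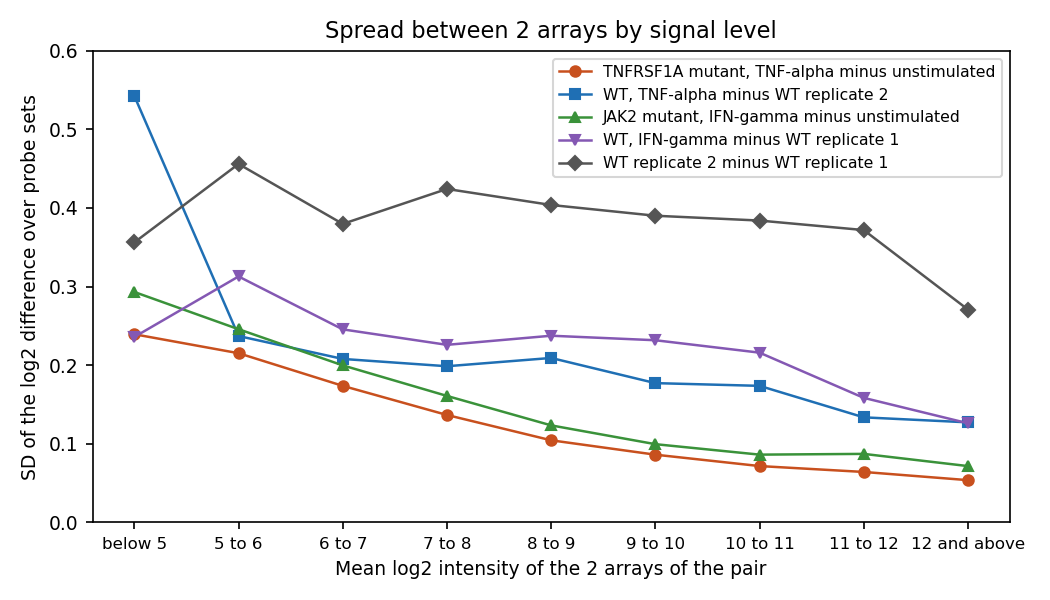
SD of the log2 difference over probe sets (vertical) in 9 steps of mean log2 intensity (horizontal) for 5 pairs of arrays. The TNFRSF1A mutant pair runs from 0.239 to 0.054 and lies lowest from a level of 5 upward, and the pair of unstimulated WT arrays lies highest there.

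Since a difference of 0.2 is common among dim probe sets and rare among bright ones, each difference was also divided by the spread at its level. A level SD is the SD of the probe sets in the same step of mean log2 intensity, 1 unit wide, and a response in level SDs is counted from the median of that step. This scale was chosen after the data were seen. At least 2 level SDs above the median lay 646 probe sets, 2.4%, and as far below it 668, 2.48%. At least 3 level SDs above it lay 85, 0.316%, and as far below it 78, 0.29%. A limma fit of the 7 conditions, in which only the WT pair gives a spread (1 residual degree of freedom), called 0 probe sets in the mutant at an adjusted p of 0.05, and 2 had an unadjusted p under 0.05. The same limma fit called 0 in WT with TNF-alpha too, with 196 under an unadjusted p of 0.05 and a smallest adjusted p of 0.0724, so its count in the mutant carries no information.

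The control probe sets gave a further reading of the array noise. The 18 hybridisation spikes, which are added after labelling, differed between the mutant arrays by an SD of 0.036. The 20 labelling spikes, added to the RNA before amplification, had an SD of 0.150. The ratio of the 3′ to the 5′ probe set of actin, which rises as RNA is degraded or copied less fully, was 4.51 without and 5.53 with TNF-alpha in the mutant, and 3.27 and 4.81 in WT. It was higher in the stimulated array of both IFN-gamma pairs too, 4.41 and 4.81 in WT and 5.74 and 6.47 in the JAK2 mutant. The GAPDH ratio in the TNFRSF1A mutant was 1.139 and 1.150. The actin ratio was thus higher in all 4 stimulated arrays, and its part in the responses was not tested.

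Probe sets of 1 gene give a second reading on the same arrays. Over 6530 genes with at least 2 probe sets compared, the responses of a gene's 2 brightest probe sets correlated with an r of 0.18 in the mutant, 0.28 in the JAK2 mutant and 0.61 in WT with TNF-alpha. Over 2555 genes with log2 values of at least 8 on every array the values were 0.29, 0.30 and 0.76. The probe sets share arrays and RNA, so these values describe agreement within a pair of arrays only. Across the 26938 probe sets the mutant and the WT response to TNF-alpha correlated with an r of 0.07, with no array shared between them.

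The targeted gene came first among the members. TNFRSF1A has 4 probe sets, and the brightest read 9.36 in unstimulated WT, 9.23 in WT with TNF-alpha, 6.56 in the unstimulated mutant and 6.55 in the mutant with TNF-alpha. The mutant readings lay far below those of WT and differed from each other by -0.01. The other 3 stayed in the background range in both mutant arrays, below the upper quartile of each array's background probe sets, a log2 value of 6.01 and 6.04. They gave mutant responses of -0.24, 0.02 and 0.64. The value of 0.64, from 5.38 to 6.03, was 1 of the 10 past 1.5-fold, and the brightest probe set did not share it. Where the probe sets lie relative to the insertion was not analysed here.

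The other TNF-alpha receptor gene was measured on the same arrays. TNFRSF1B, which encodes TNFR2, had 2 probe sets above the background range. The brighter read 7.62 in unstimulated WT, 7.66 in WT with TNF-alpha, 7.62 in the unstimulated mutant and 7.60 in the mutant with TNF-alpha. The second read 7.19, 6.96, 7.01 and 6.91 in the same order. The mutant responses were -0.01 and -0.11, and no array stood far from the others. A level of mRNA does not tell how much receptor stands on the cell, and whether TNFR2 took part in any mutant value was not tested.

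The 17 measured genes of the TNFR1 complex and the kinases behind it stayed together in the mutant. Their median was -0.03, their range -0.26 to 0.22, and 5 of the 17 lay above 0 (loess and quantile normalization turned the median to 0.0010 and 0.0022), against 41.3% of all 11529 genes compared. The highest value, 0.22, belonged to RNF31, the catalytic subunit gene of the linear ubiquitin ligase. The adaptor gene TRADD had 0.02, and FADD and CASP8, which carry the death signal, had -0.04 and -0.06. MAP3K7, which encodes TAK1, had 0.01. Of the IKK genes, IKBKB had 0.08, CHUK -0.08 and the regulatory subunit gene IKBKG -0.26, at a dim level of 6.35 and 6.09. None of the 17 lay 2 level SDs from its level median in either direction. The 10 measured genes of other receptors that can signal to NF-kappaB had a median of -0.02, with CD40 at 0.18, LTBR, the lymphotoxin-beta receptor gene, at -0.04 and TLR2 at -0.27.

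The NF-kappaB subunit and feedback genes did not move as 1 group. Of 15 genes compared, 0 passed 1.2-fold in the mutant, while 7 were raised 2-fold in WT. Those 7 had mutant values above 0 in every case, with a median of 0.19, and 2 of the other 8 lay above 0, with a median of -0.05. The list median was 0.06, against -0.02 over all genes.

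NFKBIA encodes IkappaB-alpha, whose renewed synthesis ends a pulse of NF-kappaB. Its brightest probe set read 9.25 in unstimulated WT, 12.04 in WT with TNF-alpha, 9.36 in the unstimulated mutant and 9.56 in the mutant with TNF-alpha. In such bulk RNA a few strongly responding cells and a small response of all cells cannot be told apart, nor can fewer cells of a type and less RNA per cell. The mutant with TNF-alpha stood slightly above both unstimulated arrays and far below the WT array with TNF-alpha, from which it differed by -2.48. The further probe sets gave mutant responses of 0.20 and 0.26, so all 3 were higher, by 2.36 to 3.48 level SDs. In intensity units the mutant gained 2.59% of what WT gained.

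TNFAIP3 encodes A20, a ubiquitin-editing enzyme that shuts the pathway down. It read 9.60 in unstimulated WT, 11.96 in WT with TNF-alpha, 10.02 in the unstimulated mutant and 10.13 in the mutant with TNF-alpha. Both mutant readings lay above unstimulated WT, and the step between them was 0.12, or 2.14 level SDs. Its other probe set gave 0.16. The mutant gain was 2.71% of the WT gain.

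Other genes of this list split by their WT response. NFKB1, the gene of p105 and p50, read 9.40 and 9.59 in the mutant, a response of 0.18 and 2.63 level SDs. NFKBIE, the IkappaB-epsilon gene, read 8.69 and 8.94, a response of 0.25 and 2.82 level SDs. The subunit genes RELB and NFKB2, at 0.21 and 0.22, stayed under 2 level SDs, and NFKBIZ, an atypical IkappaB, had 0.03. Of those not raised 2-fold in WT, RELA had -0.06, REL -0.14, NFKBIB -0.05 and NFKBID -0.18. CYLD, a deubiquitinase gene, gave 0.11 from its brightest probe set and -0.09 and -0.16 from the others. TNIP1, a partner of A20, gave 0.06 from its brightest probe set and -0.41 from another, which had 0.62 in WT.

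Among chemokine and cytokine genes the bright members stood above their level and the dim ones scattered. Of 13 compared, 11 lay above 0, the median was 0.15, 1 passed 1.2-fold upward and 1 downward. The 6 raised 2-fold in WT had a median of 0.10 and the other 7 one of 0.15, so here the WT response did not divide the list.

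LTB, the lymphotoxin-beta gene, read 11.68 in unstimulated WT, 13.56 in WT with TNF-alpha, 11.55 in the unstimulated mutant and 11.71 in the mutant with TNF-alpha. The mutant response of 0.16 was small beside 1.88 in WT, but it lay 2.85 level SDs up. The second LTB probe set went from 10.36 to 10.70, by 0.34 or 5.23 level SDs, the highest of any probe set with a single gene name that was raised 2-fold in WT.

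CXCL8, the gene of the neutrophil attractant interleukin-8, was already high without TNF-alpha. Its brightest probe set read 11.69 and 12.56 in WT and 12.17 and 12.31 in the mutant. The 3 probe sets gave mutant responses of 0.14, 0.16 and 0.20, each more than 2 level SDs up. CCL3, which attracts monocytes, read 8.62 and 8.86 in the mutant, a response of 0.25 and 2.80 level SDs. CCL5 had 0.09. Probe sets shared by CCL4 and its copies name no single gene and are left out of the gene values.

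CXCL10, the CXCR3 ligand with the largest WT response, could not be followed in the mutant. It read 5.53 in unstimulated WT, 11.98 in WT with TNF-alpha, 4.74 in the unstimulated mutant and 5.23 in the mutant with TNF-alpha. Both mutant readings and unstimulated WT lay in the background range. The response of 0.49 was therefore 1.79 level SDs of its dim level and 0.269% of the WT gain. CXCL11 and CXCL3 lay in the background range too, with 0.18 and -0.21. CXCL2 gave 0.04 from its brightest probe set and 0.50, or 2.90 level SDs, from another. IL1B, the interleukin-1-beta gene, read 6.45 and 6.15, a response of -0.30 against 1.78 in WT.

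**Figure D3:**
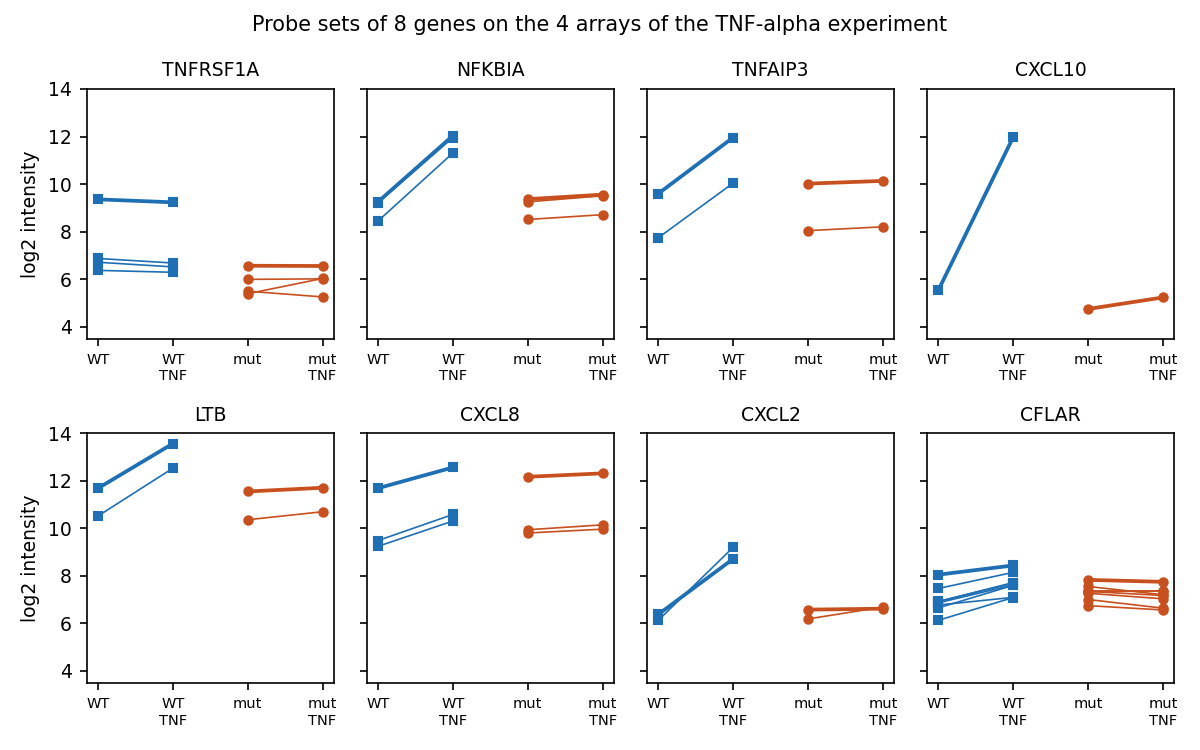
Log2 intensity (vertical) of every probe set compared of 8 genes on the 4 arrays of the TNF-alpha experiment (horizontal; WT in blue, TNFRSF1A mutant in orange); lines join the unstimulated and the stimulated array, and the thick line is the probe set that stands for the gene. NFKBIA goes from 9.25 to 12.04 in WT and from 9.36 to 9.56 in the mutant, and CXCL10 from 5.53 to 11.98 and from 4.74 to 5.23.

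The surface and adhesion genes showed the same mixture. Of 10 compared, 5 were raised 2-fold in WT, 0 passed 1.2-fold in the mutant, 7 lay above 0 there and the median was 0.02. CD83, a maturation marker of antigen-presenting cells, read 9.21 and 9.43 in the mutant, a response of 0.22 and 3.06 level SDs. CD40, a costimulatory receptor, read 9.58 and 9.76, a response of 0.18 and 2.59 level SDs. ICAM1, the adhesion ligand of leukocyte integrins, had 0.04 after 2.49 in WT, and TNFAIP2 and TNFRSF4 had 0.03 and 0.00 after 1.59 and 1.46.

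Among the 8 survival genes the median was -0.04 and 3 lay above 0. IER3, an early response gene, read 7.80 and 7.97, and BCL2A1, a BCL2 relative, 5.89 and 6.05, with responses of 0.17 and 0.16 after 2.67 and 1.81 in WT. BIRC2, a ubiquitin ligase of the receptor complex, had -0.07. CFLAR, which encodes the caspase-8 inhibitor FLIP, had 8 probe sets compared with mutant responses from -0.36 to 0.05, of which 1 lay above 0. The probe sets with the lowest values had 0.95 and 0.96 in WT.

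Described as a set chosen on other arrays, the genes raised 2-fold in WT leaned upward in the mutant by a small step. The 76 probe sets raised in WT had a mutant median of 0.15 and 59 lay above 0, where 38.5% of all probe sets did. They were read on arrays that played no part in choosing them. Some were too dim in the mutant to be followed. Leaving out every probe set with a mutant reading in the background range, 54 remained, with a median of 0.15 and 44 above 0. At least 2 level SDs up lay 21 of the 76, 27.6%, from 12 named genes, and 0 lay as far down; 2.4% of all probe sets lay that far up. Read as 1 value per gene, 10 of the 36 genes lay 2 level SDs up, with no share over all genes computed beside it. Named here partly after their values were seen, these were NFKBIA, TNFAIP3, CD83, LTB, NFKB1, RGS16, PPIF, NFKBIE, CD40 and MREG. RGS16 restrains G-protein signalling and PPIF encodes cyclophilin D of mitochondria.

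Over probe sets the lean followed the size of the WT response, which passed 1.5-fold upward in 0.987% and downward in 0.16% of them. The 18 probe sets raised 4-fold or more in WT had a mutant median of 0.19 and 17 lay above 0. The 58 raised between 2-fold and 4-fold had 0.09, the 190 raised between 1.5-fold and 2-fold had 0.02, and the 23949 within 1.2-fold had -0.03. The 43 lowered 1.5-fold or more had -0.10, and 13 of them lay above 0. Several probe sets of 1 gene sit in the same class, so these are not independent readings. The 18 also hold probe sets of CXCL10, CXCL3 and CXCL11 that were in the background range in the mutant with and without TNF-alpha. Probe sets without a gene name, with mutant differences of 0.34, 0.30 and 0.19, were in that range on both arrays too. The values of all these probe sets cannot be told from background, and the median of the 18 was not computed without them. Read as 1 value per gene, the 8 genes raised 4-fold or more had 0.14 and the 28 raised between 2-fold and 4-fold 0.12. The 90 raised between 1.5-fold and 2-fold had 0.02, and the 10468 within 1.2-fold had -0.02. The 9 genes lowered 1.5-fold or more had -0.002 with 4 above 0, so by gene the lowered class showed no fall.

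**Figure D4:**
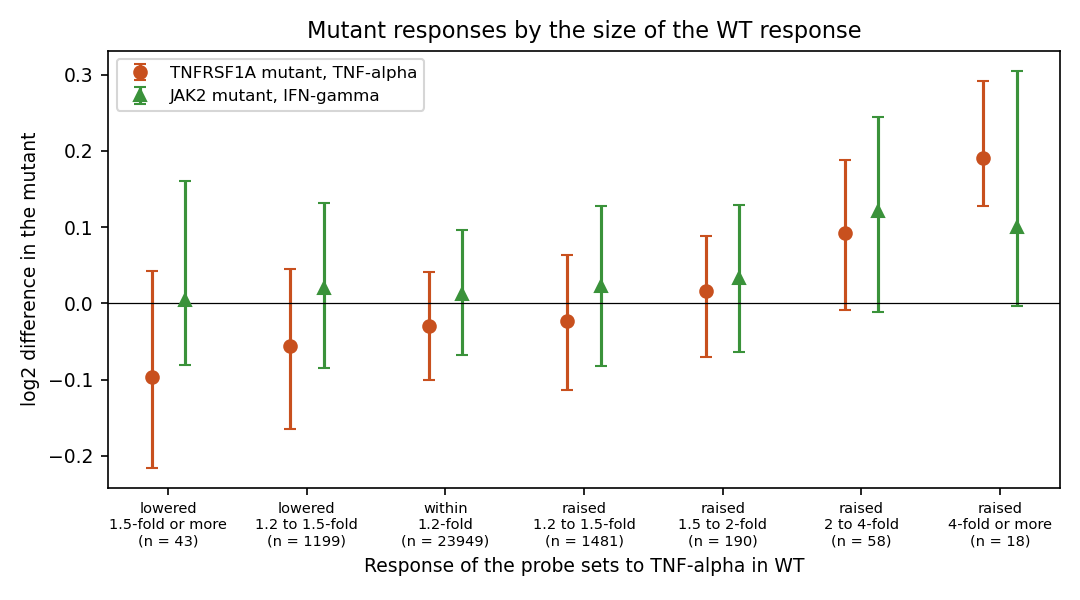
Median log2 difference (points) with its quartiles (bars) in the TNFRSF1A mutant with TNF-alpha and in the JAK2 mutant with IFN-gamma (vertical), by the response of the same probe sets to TNF-alpha in WT (horizontal). The TNFRSF1A mutant medians run from -0.10 to 0.19, and those of the JAK2 mutant also stand highest in the classes raised 2-fold or more, at 0.12 and 0.10.

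The other mutant pair gave a yardstick with a different gene and a different cytokine. In JAK2 mutant cells with IFN-gamma the 76 probe sets had a median of 0.12, 54 lay above 0, where 54.4% of all probe sets did, and 8 lay 2 level SDs up, or 10.5%, where 3.31% of all probe sets did. An upward lean was thus present there as well. Some of these genes, such as CXCL10 and GBP5, are also targets of IFN-gamma. The difference between the mutants was not tested. Where log2 was at least 8 on both TNFRSF1A mutant arrays, 30 of the 76 probe sets remained, with a median of 0.16 and 26 above 0, against -0.04 and 4110 of 12901 for all probe sets of that level. In the JAK2 mutant the same 30 probe sets had a median of 0.07 with 19 above 0, against 0.02 and 7663 of 12901. That filter did not ask for bright signal on the JAK2 mutant arrays. Where log2 was at least 8 on both JAK2 mutant arrays, 16 of the 76 remained, with a JAK2 mutant median of 0.07 and 11 above 0. At 7 or more on both, 34 remained, with a JAK2 mutant median of 0.10 and 24 above 0.

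The lean depended on the WT control. The labels pair WT replicate 2 with TNF-alpha. With WT replicate 1 in its place, 161 genes were raised 2-fold, and their mutant median was -0.02 with 73 above 0, the same as over all genes; the 29 raised against both had 0.10 with 24 above 0. MREG had -0.33 and SLC2A6 -0.11 in WT against replicate 1.

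In size, the mutant differences of the genes raised in WT were small beside their WT responses. Array noise, differences between cultures and any response were not separated in them. Over the 36 genes the median fold was 1.098 in the mutant and 2.76 in WT. In intensity units the mutant gained a median of 2.65% of the WT gain, with a range of -13.4% to 30.7%. Above 10% stood 6 genes, also named after their values were seen. MREG stood at 30.7%, NFKB2 at 16.5%, KCNN1 at 13.9%, NFKBIE at 12.2%, MAP3K8 at 12.02% and RELB at 10.5%. MREG and NFKBIE lay 2.36 and 2.82 level SDs up. KCNN1, NFKB2, MAP3K8 and RELB stayed under 2 level SDs, at 1.05, 1.29, 1.56 and 1.77. In the mutant KCNN1 read 6.14 and 6.31 and NFKB2 6.29 and 6.51, little above the background range. In all 36 the mutant array with TNF-alpha read lower than the WT array with TNF-alpha, by a median of -1.46, and in 27 at least 2-fold lower. The genes were chosen for high readings on that same WT array, so this direction was largely set by the choice. Probe sets shared by CCL4 and its copies, also raised 2-fold in WT, read higher on the mutant array with TNF-alpha, by 0.10 to 0.56. They already read 8.37 to 9.39 in the unstimulated mutant, against 8.50 to 9.25 in WT with TNF-alpha. Unstimulated WT read 7.32 to 8.08 in replicate 2 and 8.32 to 9.33 in replicate 1.

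**Figure D5:**
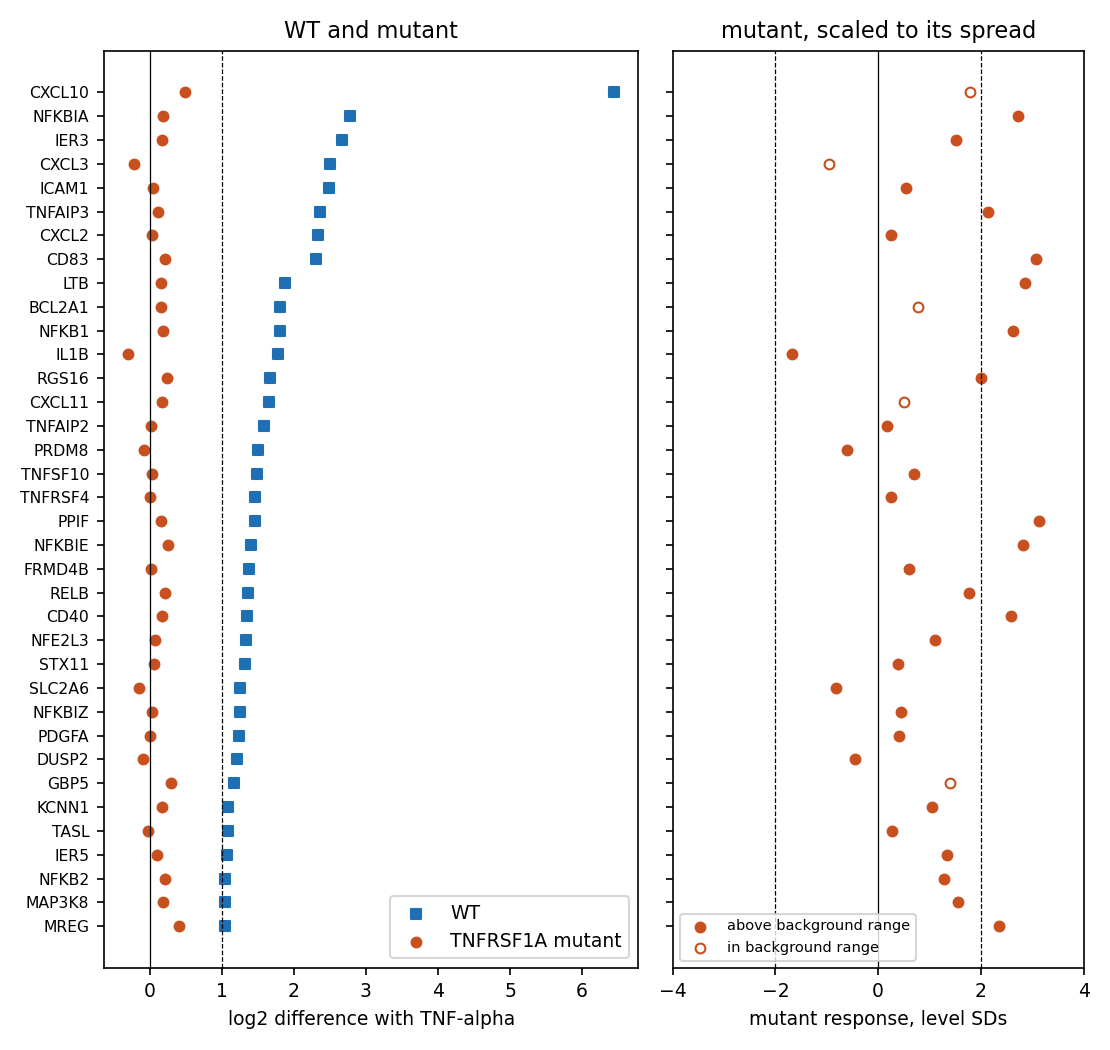
The 36 genes raised 2-fold by TNF-alpha in WT (vertical, ordered by WT response): left, log2 difference with TNF-alpha in WT and in the TNFRSF1A mutant, with 2-fold dashed; right, the mutant response in level SDs, with 2 level SDs dashed and open points where at least 1 mutant array lay in the background range. All mutant values lie between -0.30 and 0.49, and 10 genes lie at 2 level SDs or above.

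The mutant values were also set beside the promoter motif shown above. The 11 raised genes with the motif had a mutant median of 0.16 and 10 lay above 0, and the 19 without it had 0.04 with 13 above 0. Over the genes not raised in WT the medians were -0.02 for 696 genes with and -0.02 for 8738 genes without it. The WT medians of the raised genes also differed, at 1.88 with and 1.38 without the motif.

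Taking every probe set, rather than those raised 2-fold, 53 lay at least 2 level SDs up with TNF-alpha in both the mutant and WT. That was 8.20% of the 646 in the mutant and 8.15% of the 650 in WT, which were 2.41% of all probe sets there. For the JAK2 mutant with IFN-gamma the corresponding overlap with WT and TNF-alpha was 38 probe sets, 4.26% and 5.85%. Of those 38, 8 were raised 2-fold in WT, and of the 53, 21 were, the same 21 counted earlier. The 53 held 34 named genes. Beside those above they included, named after their values were seen, SQSTM1, the gene of the autophagy receptor p62, with 0.12, 0.12 and 0.14 from 3 probe sets. The prostaglandin receptor gene PTGER4 had 0.18 at a level of 11.09 and 11.26. LIF, a cytokine gene of the interleukin-6 family, had 0.54 in the mutant and 0.62 in WT, but its unstimulated mutant reading of 5.91 lay in the background range.

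Downward, 29 probe sets lay 2 level SDs from their level in both, 4.34% of the 668 in the mutant and 11.2% of the 260 in WT, which were 0.965% of all. The 5′ probe set of actin was the lowest of these in mutant level SDs, at -4.63, with log2 differences of -0.32 in the mutant and -0.59 in WT, beside the actin ratios given earlier. HSPA5, the main chaperone of the endoplasmic reticulum, had -0.39 and -0.48, the glycolytic gene ALDOC had -0.30 and -0.40, and SOCS2, a feedback inhibitor of cytokine receptors, -0.27 and -0.41. These WT falls rest on WT replicate 2: against WT replicate 1 the WT values were 0.68 for HSPA5, 1.06 for ALDOC and 0.39 for SOCS2. Opposite directions were rarer, and near the share over all probe sets. Of the 646 up in the mutant, 5 were down in WT, where 0.965% of all were. Of the 668 down in the mutant, 19 were up in WT, where 2.41% of all were. Among the 19 was TLR2, a receptor for bacterial lipoproteins, with -0.27 and 0.59.

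The largest differences in the mutant were mostly of dim genes without a response in WT. By gene, 4 were higher (0.0347%) and 1 lower (0.00867%) at 1.5-fold. The 10 highest were FABP3 at 0.64, the endothelial adhesion gene ESAM at 0.61, OR10Q1 at 0.60, USP9Y at 0.59, IHO1 at 0.57, URB2 at 0.56, OR4N2 at 0.54, LIF at 0.54, LGALS3BP at 0.54 and UBE2Q2P13 at 0.51. FABP3, a fatty acid carrier, read 4.89 and 5.54, and OR10Q1, an odorant receptor gene, 5.55 and 6.15. OR4N2, another odorant receptor gene, read 7.30 and 7.85 and was the brightest of the 10 in the mutant. LIF alone among them had a WT response past 1.5-fold upward; ESAM had -0.58 there.

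The 10 lowest were CHCT1 at -0.65, CERCAM at -0.54, TMEM81 at -0.53, FGF9 at -0.52, PLEKHM3 at -0.49, HOXC9 at -0.48, DRC8 at -0.46, KCNMB2 at -0.46, ZNF571 at -0.46 and CELP at -0.44. FGF9, a growth factor gene, read 7.57 and 7.05 in the mutant. Another FGF9 probe set had 0.47, and another CERCAM probe set had 0.36, so these genes were read in opposite directions. ZNF571 had further values of 0.10 and 0.15, and USP9Y, among the highest, had further values of -0.11 and -0.04. The highest value in level SDs over all probe sets, 7.33, belonged to C1QL1, a secreted C1q-related protein gene, which went from 10.58 to 11.07 in the mutant and had -0.04 in WT and -0.51 in the JAK2 mutant.

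Other programmes lay near 0, where 325 of all genes (2.82%) passed 1.2-fold upward and 186 (1.61%) downward. The immediate early genes had a median of 0.06 over 22 genes, with FOS at 0.20, JUN at 0.05, KLF6 at 0.14 and MYC at -0.14. Interferon-stimulated genes had 0.02 over 22, of which 2 passed 1.2-fold upward and 1 downward. The integrated stress response had 0.03, the cell cycle -0.03, housekeeping genes -0.02, cholesterol synthesis -0.05, glycolysis and hypoxia -0.05 and heat shock -0.08, with 0 past 1.2-fold in each. The branch through TRAF3 and the kinase NIK had 0.07 over 5 genes.

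The markers of the cells were read on the same 2 arrays. Of the myeloid leukaemia markers measured, KIT read 8.32 and 8.24, CD34 7.76 and 7.68 and GATA2 12.05 and 11.99, while SPI1 lay in the background range and MPO read 5.82 and 6.25. The summed intensity of this list was 4884 without and 4685 with TNF-alpha, and GATA2 made up most of it. Other GATA2 probe sets rose by 1.03 and 1.02 with TNF-alpha in WT. Among markers of other blood cells, CD14, CD3E, CD2 and MS4A1 lay in the background range on both arrays, as did all 3 stromal markers. CD3D read 8.74 and 8.71, LYZ 9.04 and 8.99, and NKG7 8.07 and 8.11.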

How the data were processed

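RNA of 8 KBM7 samples was amplified, labelled with biotin and hybridised to Affymetrix PrimeView arrays. The deposited intensity values came from Affymetrix Expression Console 1.1 with RMA (background correction, quantile normalization and summary per probe set), per the submitters' processing notes. The deposited values are linear, while a log2 scale had been planned for, so log2 was taken here. The step that made them linear is not given in the sources used here. Probe sets were named from the platform annotation: 44994 had 1 gene, 1832 several and 2569 none. Median intensities ran from 63.9 to 66.9, and with so few arrays the precision is low.

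Differences were taken in Python 3.11.15 with pandas 2.3.3, with limma 3.58.1 (R 4.3.3) as an alternative. The genes named by rule were TNFRSF1A, NFKBIA, TNFAIP3, CXCL10, the 10 largest rises and falls, the 12 genes raised most in WT, members of the TNF-alpha lists and up to 4 of every other list. Members and lists were chosen with earlier results of these data known. Alternatives were the level filter, normalization, probe set choice, fold and WT control.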

Additional observations from a re-analysis of the deposited data

Results flagged for a closer look

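In 7 of the 36 genes raised 2-fold by TNF-alpha in WT, the mutant difference lay below 0; over all genes compared, 41.3% lay above 0. Each direction rests on 1 pair of arrays, and the difference between the genotypes was not tested. IL1B had -0.30 in the mutant and 1.78 in WT, and CXCL3, in the background range in the mutant, had -0.21 and 2.51. SLC2A6, a sugar transporter gene, had -0.15 and 1.26, and the phosphatase gene DUSP2 had -0.10 and 1.21. PRDM8 had -0.080 and 1.499, and TASL had -0.016 and 1.09. PDGFA, a growth factor gene, had -0.0014 and 1.25, while its other 2 probe sets compared had 0.30 and 0.37 in the mutant. PDGFA and TASL lay above their level median, by 0.41 and 0.27 level SDs, so their sign rests on where 0 is set. With loess or further quantile normalization 31 genes lay above 0. All 7 mutant values lay within 2 level SDs of their level median.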

How the results depend on the processing

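No paired analysis was possible because each mutant condition had 1 array. Of 124 values under alternatives, 108 stayed within 1.5 times the count or spread, or within 1 SD over genes of the median or gene value, 15 moved beyond that and 1 reversed. The SD over genes was 0.120, close to the WT-raised median of 0.14 itself, so staying within it says little about values this small. All 68 values of lists and genes stayed within it, among them the 9 that changed sign. The count raised 2-fold, 0, became 10 at 1.5-fold, 646 at 2 level SDs and 85 at 3. The count lowered 2-fold, 0, became 1 with no level filter, 15 at 1.5-fold, 668 at 2 level SDs and 78 at 3. The 10 probe sets raised 1.5-fold became 64 with no filter, 1 at a level of at least 8, 4 with 1 probe set per gene and 2 with the mean per gene. The 15 lowered became 47, 1, 1 and 1 in the same order. The median of the WT-raised genes, 0.14, reversed to -0.019 without WT replicate 2, where other genes (161) are in the set, and was 0.04 to 0.16 otherwise. The SD over probe sets ran from 0.0949 to 0.163. Of 68 values of lists and genes, 59 kept their sign and 9 near 0 changed it: with loess, quantile normalization or the mean per gene, TNFRSF1A reached 0.10, TNFRSF1B 0.047, the TNFR1 complex 0.0022 and housekeeping 0.012. Loess and further quantile normalization each moved the median of all probe sets by 0.03. Dim signal limits what can be read of CXCL10, CXCL11 and CXCL3 in the mutant.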

Other observations

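A few bright genes outside the TNF-alpha lists stood far from their level in the mutant, and they are given here as values only, chosen after they were seen. CHD4, a chromatin remodeller gene, went from 8.92 to 9.27, by 0.35 or 4.55 level SDs, and had 0.75 in WT (0.33 against replicate 1). COX3, a mitochondrial gene of the respiratory chain, had 0.30 in the mutant, or 5.76 level SDs, and -0.16 in WT. With IFN-gamma COX3 had 0.25 in the JAK2 mutant, or 3.29 level SDs, and 0.23 in WT. Downward, a probe set of DLK1, a Notch-like ligand gene, had -0.43 in the mutant and -0.48 in WT (0.29 in WT against replicate 1), and a probe set of HSPA8, a constitutive chaperone, had -0.22 and -0.20. PIM1, a kinase gene, had -0.59 in the mutant and -0.23 in WT (0.57 in WT against replicate 1). Its probe set was the only one past 1.5-fold in the mutant with a mean log2 level of 7 or more.

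Probe sets shared by CCL4 and its copies name no single gene. Their 4 mutant differences ran from 0.19 to 0.41, after 1.13 to 1.42 in WT. The WT values rest on WT replicate 2: against WT replicate 1 they were 0.27, 0.18, -0.10 and -0.12.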
